A study of Mus musculus with 14 samples.

Results

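The genes described here are 40 mouse genes of proliferation and DNA replication, chosen by name from a list of cell cycle regulators, replication enzymes and mitotic proteins. All 40 were found among the 34452 mouse genes of the deposited table, and all 40 passed the low-count filter that left 16289 genes for testing. RNA came from the retinal pigment epithelium (RPE) of 7 mice killed at postnatal day 20. The paper states fewer paired replicates for this comparison than the 7 pairs used here, and does not explain the difference. All were rd1, a strain that, here on the FVB/N background, lacks functional Pde6b and loses its rods early. In each mouse 1 eye had received AAV Best1 Nrf2, which drives human Nrf2 from the human RPE promoter Best1, together with AAV Best1 GFP. The other eye had received AAV Best1 GFP alone. All eyes were therefore rd1 and carried the GFP vector, and the eyes compared differed by the Nrf2 transgene and by the added vector that brought it. The RNA was drawn from the eyecup after the retina had been removed, so cells next to the RPE could contribute. The groups are called Nrf2 and control, and a library is named by its group and mouse number.

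A dividing cell commits in G1, when cyclin D and then cyclin E kinases release E2F, the factor that switches on replication genes. In S phase the MCM ring unwinds DNA while the PCNA clamp holds the polymerases and ribonucleotide reductase and thymidylate synthase supply nucleotides. In G2 and M phase cyclin A and cyclin B with Cdk1, the Polo and Aurora kinases and a set of kinesins build the spindle, and the spindle checkpoint holds the anaphase-promoting complex until every chromosome is attached. RPE cells of a mature eye are regarded as postmitotic, whereas the basal layer of the cornea and conjunctiva divides throughout life.

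Total counts ranged from 16548349 to 50543008 per library. The vector transcript, human NFE2L2, exceeded the control eye in each of the 7 pairs, at 1163 to 8711 CPM (counts of a gene among 1000000 counts of its library) in Nrf2 libraries and 1.12 to 1163 CPM in control libraries. The highest control library, control 3, and the lowest Nrf2 library, Nrf2 4, met at 1163 CPM. These libraries were also the most alike of all 91 pairs. Across genes, which are not independent replicates, the correlation of their log2 CPM was 0.983, against at most 0.973 in the other 90 pairs. The median distance between them over the 40 proliferation genes was 0.086 on the log2 scale, against 0.215 or more in the other pairs. Against Poisson counting error their mean chi-square was 8.01 per gene, where the other pairs had 48.8 or more. Amplified reads are not independent molecules, so this value cannot tell whether these libraries hold different RNA. Nrf2 2 was the library least like any other, its highest correlation being 0.837. Results are therefore also given without mice 3 and 4.

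Of the RPE markers, Rpe65 encodes the isomerase of the visual cycle. It was at 752 to 2220 CPM in control eyes and 134 to 1063 CPM in Nrf2 eyes, so the labelled cell type was present in every library. Rlbp1, which is also on the list of inner retina and Müller glia markers, was at 932 to 2781 CPM and 838 to 1635 CPM. Every proliferation gene was also detected in every library. The lowest count was 4, for Plk1 in Nrf2 2. Per kilobase of annotated exon (TPM), the median control level ran from 1.53 for Cenpf and 1.88 for Ttk to 53.4 for Pcna and 134 for Ccnd1, and the median over the 40 genes was 7.59 TPM. Exons overlap those of a neighbour on the other strand in Ccna2 (Exosc9), Ccne2 (Ints8), Cdc20 (Elovl1), Kif20a (Cdc23), Mcm7 (Ap4m1 and Cops6), Nusap1 (Oip5), Prc1 (Rccd1), Ube2c (Tnnc2) and Ccnd1 (LTO1) and on the same strand in Foxm1 (Tex52), so the counts of these genes are less certain, as are those of Ccnb2, whose pseudogene Ccnb2-ps reached 6.83 CPM. In bulk RNA, fewer dividing cells and less of these transcripts per cell cannot be told apart.

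To determine how Nrf2 overexpression changed these genes, the eyes of each mouse were compared in a paired edgeR quasi-likelihood fit, with Benjamini-Hochberg adjustment over all genes tested. Bub1b, which encodes the checkpoint kinase-like protein BubR1, fell in Nrf2 eyes, and none of the other 39 genes passed an adjusted p of 0.05. Over all genes tested 3.43% passed in either direction, 0.491% as lower and 2.94% as higher, so the 1 call among 40 (2.50%) was near the background of calls in either direction. The fitted fold change was below 0 for 37 of the 40 genes (92.5%), against 54.8% of all genes, and the median was -0.46 on the log2 scale against -0.04. The sizes were not matched by small p-values. An unadjusted p under 0.05 was reached by 2 of the 40 genes (5%), Bub1b and Ccne2, against 18.1% of all genes.

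**Figure D1:**
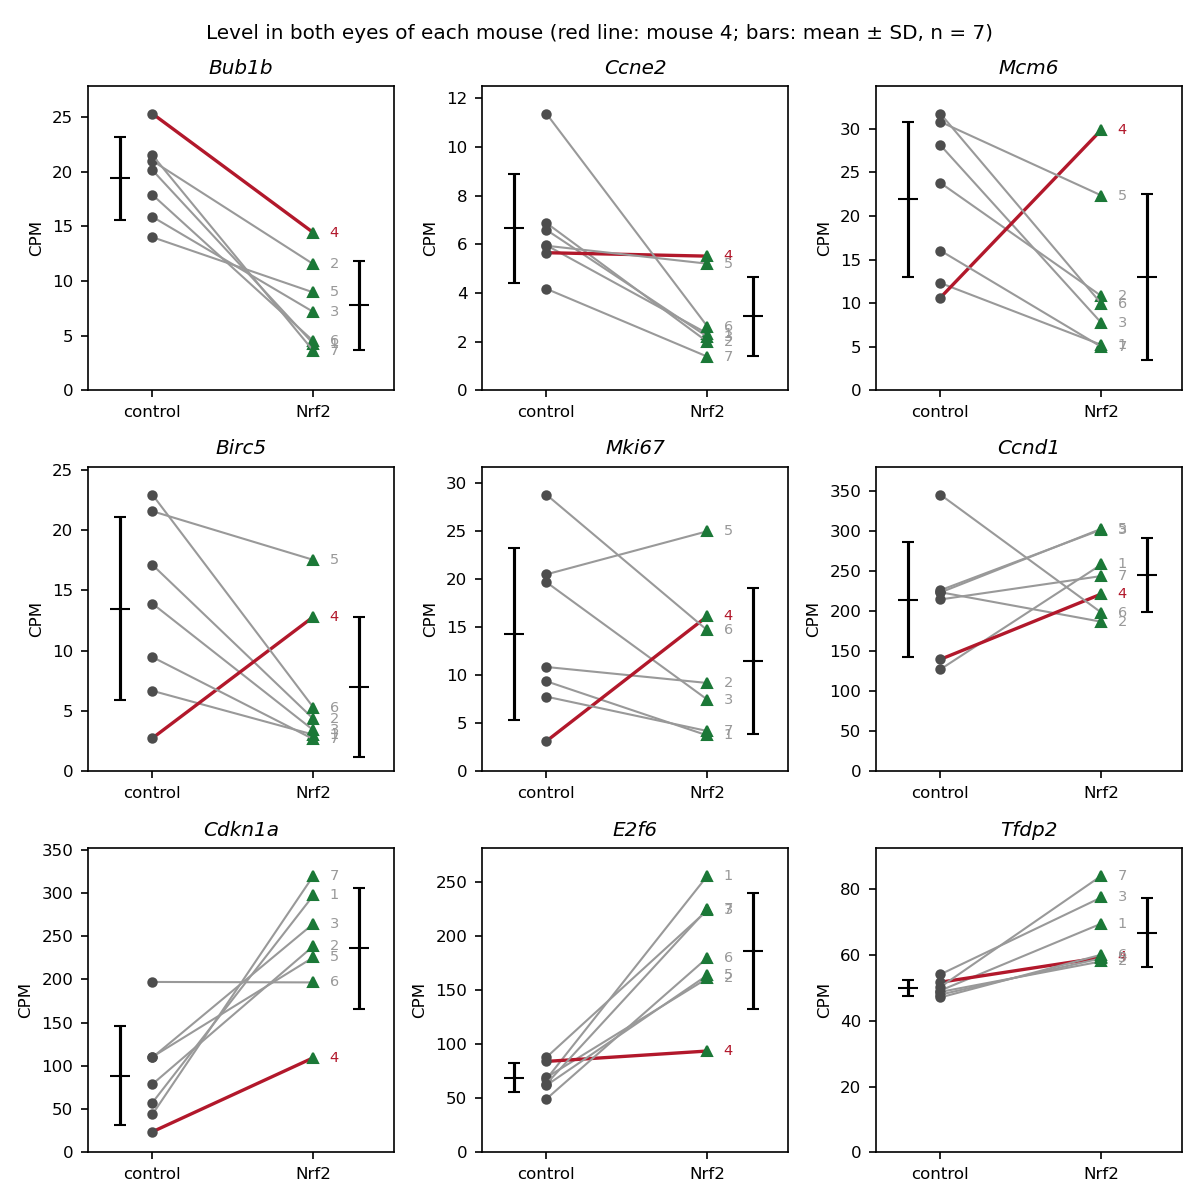
Level of 6 of the proliferation genes and 3 cell cycle regulators outside the list, in CPM on linear axes, in the control eye (circles) and Nrf2 eye (triangles) of each of 7 mice, numbered at the right and joined by a line (red for mouse 4), with the group mean ± SD at the sides. Bub1b is lower in the Nrf2 eye of all 7 mice, whereas Mcm6, Birc5 and Mki67 are higher in the Nrf2 eye of mouse 4.

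Bub1b lies on chromosome 2 (GRCm38, chr2:118598211-118641591, plus strand). Its control levels ran from 14.01 CPM over a median of 20.1 to 25.3 CPM, and its Nrf2 levels from 3.60 over 7.17 to 14.4 CPM. The groups overlapped only through Nrf2 4, the highest Nrf2 library at 14.4 CPM, which exceeded control 5 at 14.01 CPM. The log2 fold change was -1.33 (SE 0.28, adjusted p = 0.0403 by edgeR), and Bub1b was lower in the Nrf2 eye of 7 of 7 mice. It was the sole proliferation gene lower in all 7. That is 2.5% of the proliferation genes, near the 2.92% of all genes tested that were lower in all 7. An exact permutation test (two-sided, flipping signs over the 7 mice) gave p = 0.0156, the smallest that 128 sign patterns allow. With all 7 differences of the same sign, this p follows from the count of mice and adds nothing to it. It was not adjusted for the choice of Bub1b among the proliferation genes. Bub1b kept an adjusted p under 0.05 in 1 of the 7 fits that each left out a mouse, the fit without mouse 4, and the adjusted p ranged from 0.0199 to 0.144 over the 7. Without mice 3 and 4 the fold change was -1.56 with an adjusted p of 0.0505 by edgeR.

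Promoter sequence was at hand for 32 of the 40 genes in RefSeq windows of build GRCm38.p6 that run from 250 bases before a start to 50 after it. Background knowledge names 3 short elements in promoters of such genes: the CHR element (TTTGAA or TTCGAA), bound by the DREAM and MuvB complexes of G2 and M phase genes, the CCAAT box (CCAAT), and the E2F element (TTTCCCGC, TTTCGCGC, TTTGCCGC or TTTGGCGC). The letters were searched on both strands, and no string is part of another element's. A CHR was found in 19 of the 32 genes (59.4%) and in 16.7% of the 11917 tested genes with a window. A CCAAT box was found in 27 (84.4%, against 42.6%), and an E2F element in 5 (15.6%, against 4.25%). By role, the CHR was in 17 of 21 G2 and mitosis genes and in 2 of 11 G1 and replication genes, whereas the E2F element was in 1 of 21 and 4 of 11. Matches are counts of letters and were not tested as binding sites. The stretches shown next lie upstream of any annotated exon, read 5′ to 3′ towards the start, with matched elements in capitals. They are of Bub1b, the gene called in the fit on all 7 mice, of Cdc20 and Mki67 as genes of mitosis with a CHR, and of Mcm6 as the replication gene with the most E2F matches.
Bub1b (chr2:118598091-118598210, plus strand): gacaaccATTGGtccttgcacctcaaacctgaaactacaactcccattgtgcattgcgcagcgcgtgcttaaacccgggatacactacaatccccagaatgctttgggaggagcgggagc
Cdc20 (chr4:118437353-118437463, minus strand): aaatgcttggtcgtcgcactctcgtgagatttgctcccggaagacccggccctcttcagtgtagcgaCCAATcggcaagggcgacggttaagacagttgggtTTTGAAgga
Mki67 (chr7:135716380-135716499, minus strand): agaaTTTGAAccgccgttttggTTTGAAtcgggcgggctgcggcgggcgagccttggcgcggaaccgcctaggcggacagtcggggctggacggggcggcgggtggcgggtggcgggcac
Mcm6 (chr1:128359706-128359825, minus strand): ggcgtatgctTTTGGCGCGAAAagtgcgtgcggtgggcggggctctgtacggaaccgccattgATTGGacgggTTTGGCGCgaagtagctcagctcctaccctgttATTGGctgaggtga
Bub1b shows a CCAAT box in reverse in this stretch and its CHR matches lie elsewhere in the window, Cdc20 has a CCAAT box and a CHR, Mki67 a pair of CHR matches, and in Mcm6 the E2F matches nearest the 5′ end share letters.

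The genes did not move alike in the 7 mice. In mice 3, 6 and 7, 36, 40 and 37 of the 40 genes were lower in the Nrf2 eye, with median differences of -1.37, -1.37 and -1.02 in log2 CPM. In mice 1 and 2, 35 and 29 were lower, with medians of -0.81 and -0.59. In mouse 5 the genes split, 17 lower and 23 higher, at a median of 0.13. In mouse 4 the direction was turned: 39 of 40 were higher in the Nrf2 eye, Bub1b being the exception, and the median was 1.72. Over all genes tested the median of each mouse stayed between -0.07 and 0.07. Mouse 4 is the animal whose Nrf2 library resembled control 3. Whether RNA or reads of those libraries were mixed was not tested, a limit on the direction in mouse 4 and on every comparison with and without it.

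**Figure D2:**
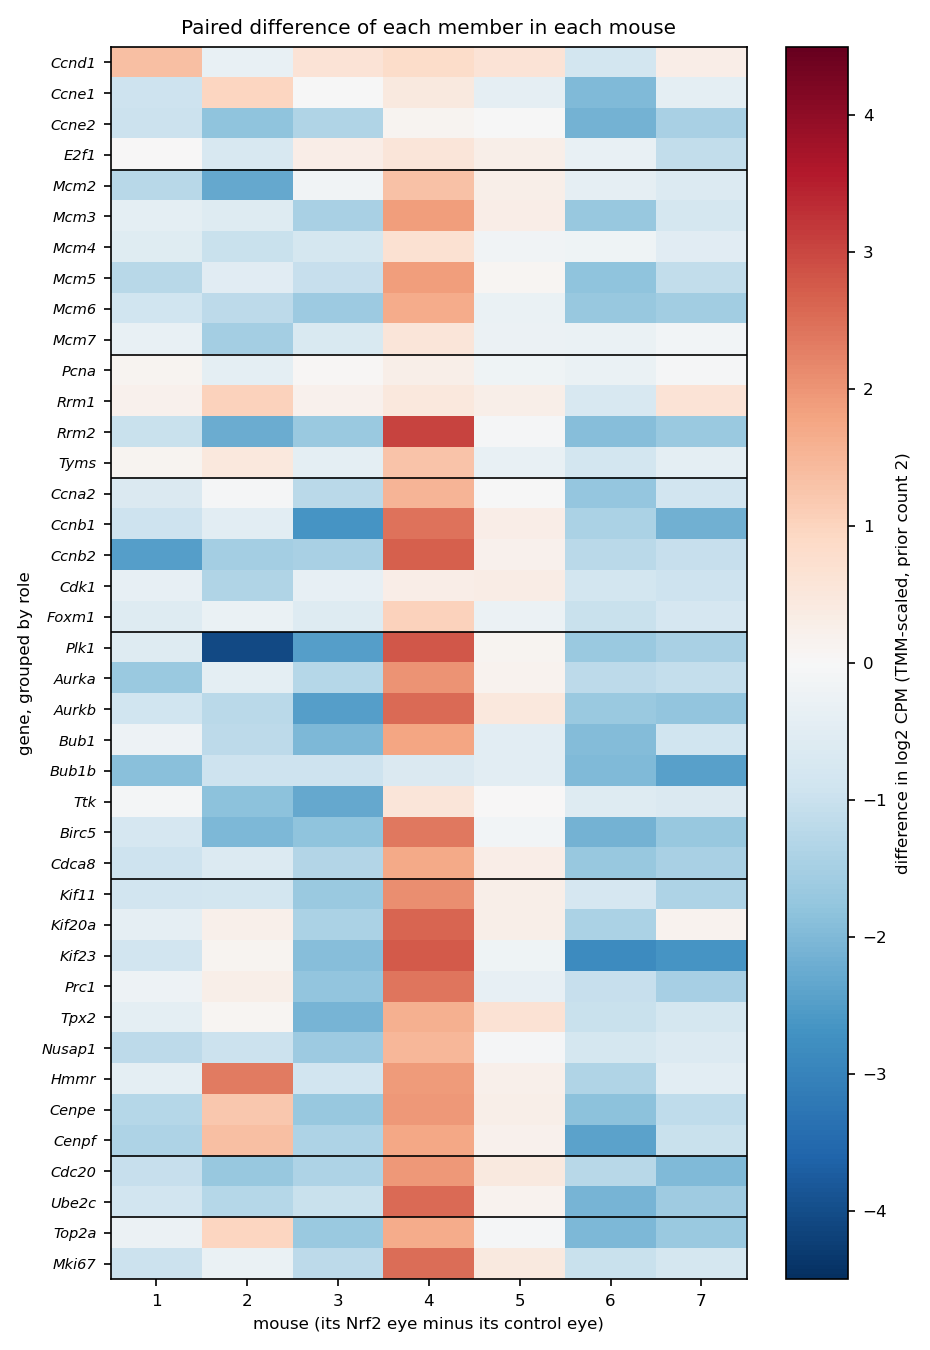
Difference in log2 CPM (Nrf2 eye minus control eye) of the 40 proliferation genes (rows, grouped by role) in each of the 7 mice (columns); blue is lower and red higher in the Nrf2 eye. Mouse 6 is blue for all 40 genes and mouse 4 red for 39 of them, with Bub1b the blue cell, and mouse 5 is pale.

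Leaving out mouse 4, a step also taken for each other mouse, brought 8 of the 40 genes past the threshold, all lower in Nrf2 eyes, where 6.23% of all genes tested without that mouse were called lower. They were the replication genes Mcm6 (log2 -1.22), Mcm5 (-0.94) and Rrm2 (-1.44), cyclin E2 (Ccne2, -1.32), and the mitotic genes Bub1b (-1.45), Birc5 (-1.45), Cdc20 (-1.17) and Ube2c (-1.13). Their adjusted p by edgeR ran from 0.0125 for Mcm6 to 0.0473 for Ube2c. The median over the 40 genes without mouse 4 was -0.80. Without any other single mouse none of the 40 was called by edgeR, with 2 to 4 genes at an unadjusted p under 0.05 against 26, all lower, without mouse 4. The shares of all genes at that level were 12.7% to 20.3% without another mouse and 27.1% without mouse 4, with 15.04% of all genes lower. Without mice 3 and 4 none was called either, where 1.58% of all genes were called lower. In that fit 16 of the 40 genes, all lower, had an unadjusted p under 0.05, against 12.04% of all genes that were lower at that level, and Mcm6 and Bub1b came nearest at an adjusted p of 0.0505 each by edgeR.

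**Figure D3:**
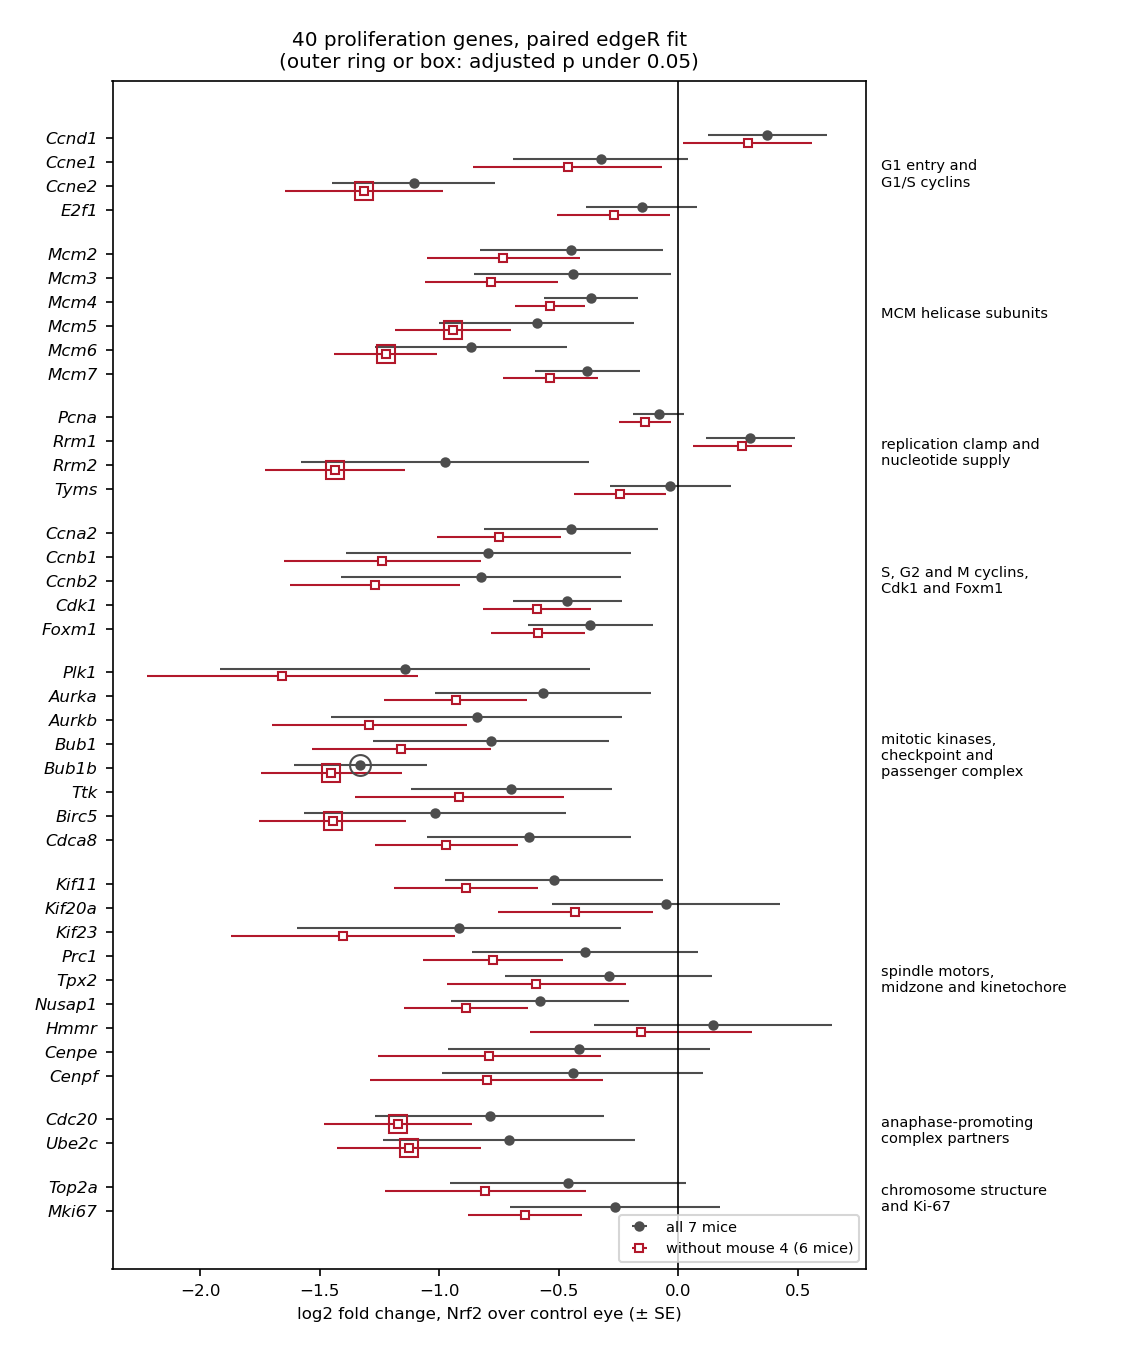
Log2 fold change ± SE (Nrf2 over control eye) of the 40 proliferation genes by role in the paired edgeR fit on all 7 mice (grey circles) and without mouse 4 (open red squares); an outer ring or box marks an adjusted p under 0.05. With 7 mice 37 estimates lie below 0 and 1 is ringed, Bub1b; without mouse 4, 8 are boxed.

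The G1 and G1/S genes held both the highest and the most divergent values. Ccnd1, which encodes cyclin D1, the kinase partner that carries growth signals into the cycle, was at 127 to 345 CPM in control eyes (median 223) and 187 to 303 CPM in Nrf2 eyes (median 244). In 5 of 7 mice the Nrf2 eye had more of it, and the estimate was 0.37 on the log2 scale (SE 0.25, adjusted p = 0.46 by edgeR). Ccne2, cyclin E2, was at 4.17 to 11.4 CPM in control eyes (median 5.96) and 1.38 to 5.51 CPM in Nrf2 eyes (median 2.34). The highest Ccne2 values of the Nrf2 group, Nrf2 4 and Nrf2 5, lay within the control range and the other 5 lay below it. Its fold change was -1.11 (SE 0.34) with an adjusted p of 0.134 by edgeR. DESeq2 called Ccne2 lower at an adjusted p of 0.0132, besides Bub1b, in a fit that called 3.75% of all genes lower. Ccne1, cyclin E1, had a fold change of -0.33 (SE 0.37), with Nrf2 2 at 11.5 CPM above every other library. E2f1, the activating E2F factor, had -0.15 (SE 0.23) and lay between 6.96 and 16.3 CPM throughout.

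All 6 MCM subunits, which form the ring of the replicative helicase, had estimates below 0, from -0.87 for Mcm6 to -0.37 for Mcm4. Mcm6 was at 10.6 to 31.7 CPM in control eyes (median 23.8) and 4.99 to 29.9 CPM in Nrf2 eyes (median 9.93). Its Nrf2 levels separated into 5 libraries at or below 10.8 CPM and Nrf2 4 and 5 at 29.9 and 22.4 CPM. The fold change was -0.87 (SE 0.40, adjusted p = 0.298 by edgeR), the smallest adjusted p among the 6 subunits. Mcm4 and Mcm7, the steadiest subunits in control eyes with coefficients of variation of 17.9% and 17.2%, had -0.37 (SE 0.20) and -0.38 (SE 0.22). Mcm2, Mcm3 and Mcm5 had -0.45, -0.44 and -0.59.

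The clamp and the enzymes of nucleotide supply differed in size among themselves. Pcna, the sliding clamp, varied least of all 40 genes, at 42.9 to 55.3 CPM in control eyes and 34.1 to 45.4 CPM in Nrf2 eyes. Its fold change was -0.08 (SE 0.11, adjusted p = 0.73 by edgeR). Rrm2, the subunit of ribonucleotide reductase whose level follows S phase, ranged far more widely, from 3.75 to 33.8 CPM in control eyes and from 3.48 to 27.5 CPM in Nrf2 eyes. Control 4 was the lowest control library and Nrf2 4 the highest Nrf2 library for Rrm2, and the fold change was -0.98 (SE 0.60). Rrm1, the partner subunit, was at 23.2 to 50.8 CPM and 29.1 to 66.5 CPM, with 0.30 (SE 0.19). By the paired differences in TMM-scaled log2 CPM, Rrm1 was lower in the Nrf2 eye of 1 of 7 mice, mouse 6. In unscaled CPM it was also lower in mouse 1 (35.0 in control and 31.7 in Nrf2) and mouse 3 (35.1 and 34.5). Tyms, thymidylate synthase, had -0.03 (SE 0.25).

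The cyclins of S, G2 and M phase followed the same animals. Ccna2 and Ccnb1, cyclins A2 and B1, had -0.45 (SE 0.36) and -0.79 (SE 0.60), and Ccnb2, cyclin B2, -0.83 (SE 0.58). Ccnb2 spanned 1.77 to 11.1 CPM in control eyes and 0.572 to 11.3 CPM in Nrf2 eyes, so the groups overlapped almost wholly. Cdk1, the mitotic kinase, was steadier at 14.6 to 21.8 CPM and 8.79 to 19.03 CPM, with -0.46 (SE 0.23, adjusted p = 0.325 by edgeR). Nrf2 4 and Nrf2 5 were within the control range for Cdk1 and the other 5 Nrf2 libraries below it. Foxm1, the factor that drives many G2 and M genes, had -0.37 (SE 0.26). None of these 5 genes passed the test.

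The mitotic kinases and the checkpoint and passenger complexes had the lowest median of the role groups, -0.81, with all 8 genes below 0. Plk1, the Polo kinase, was at 1.03 to 8.30 CPM in control eyes and 0.242 to 8.08 CPM in Nrf2 eyes, and its estimate of -1.14 was the least precise of the group (SE 0.77). Birc5, which encodes the passenger protein survivin, was at 2.76 to 22.9 CPM (median 13.9) and 2.67 to 17.5 CPM (median 4.35), with -1.02 (SE 0.55, adjusted p = 0.367 by edgeR). For Birc5, 5 Nrf2 libraries lay at or below 5.29 CPM, and Nrf2 4 and 5 at 12.8 and 17.5 CPM. Aurka and Aurkb, the Aurora kinases of spindle pole and centromere, had -0.57 (SE 0.45) and -0.84 (SE 0.61). Bub1, the checkpoint kinase paired with BubR1, had -0.78 (SE 0.50), Ttk, the kinase that starts checkpoint signalling, -0.70 (SE 0.42), and Cdca8, the passenger protein borealin, -0.63 (SE 0.43). Bub1 was 1.37 to 5.59 CPM in control eyes and therefore lower and more variable than Bub1b, with coefficients of variation of 54.2% and 19.5%.

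Of the 9 genes of spindle motors, midzone and kinetochore, 8 had estimates below 0 and none passed the test. Kif23, a midzone kinesin, had the lowest, -0.92 (SE 0.68), and spanned 2.33 to 24.9 CPM in control eyes. Kif11, the bipolar spindle kinesin, had -0.52 (SE 0.46), Nusap1, a microtubule bundler, -0.58 (SE 0.37), Prc1, the midzone crosslinker, -0.39 (SE 0.47), and Tpx2, the Aurora A activator, -0.29 (SE 0.43). The kinetochore proteins Cenpe and Cenpf had -0.41 (SE 0.55) and -0.44 (SE 0.55). Kif20a, the cytokinesis kinesin, had -0.05 (SE 0.48). Hmmr, a spindle-associated hyaluronan receptor, had 0.14 (SE 0.50), and Nrf2 2 at 35.0 CPM stood above the other Nrf2 libraries, which lay between 2.36 and 11.9 CPM. Without mouse 2 the estimate for Hmmr was -0.23.

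Cdc20, the activator of the anaphase-promoting complex, and Ube2c, its ubiquitin-conjugating enzyme, had -0.79 (SE 0.48) and -0.71 (SE 0.53). Cdc20 was at 6.50 to 23.9 CPM in control eyes (median 20.3) and 2.71 to 28.9 CPM in Nrf2 eyes (median 7.82). Nrf2 4 and 5, at 22.4 and 28.9 CPM, were again above the other 5, which reached at most 9.97 CPM. Mki67, the proliferation antigen Ki-67, was at 3.15 to 28.7 CPM in control eyes (median 10.8) and 3.73 to 24.95 CPM in Nrf2 eyes (median 9.19), with -0.26 (SE 0.44, adjusted p = 0.79 by edgeR). Top2a, the topoisomerase that untangles sister chromatids, had -0.46 (SE 0.50). Mki67 was lower in the Nrf2 eye of 5 of 7 mice and higher in mice 4 and 5.

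The spread lay between libraries more than between groups. Control 4 was the lowest control library for 33 of the 40 genes, and control 6 or control 5 the highest for 17 and 15. Among Nrf2 libraries Nrf2 1 was the lowest for 20 and Nrf2 7 for 12, and Nrf2 4 was the highest for 18 and Nrf2 5 for 14. The 26 genes of G2 and mitosis summed to 117 CPM in control 4 and 393 CPM in control 6, a 3.36-fold range, and to 72.4 to 351 CPM in Nrf2 eyes, a 4.85-fold range. The 14 genes of G1 and replication, of which Ccnd1 holds the largest part, summed to 316 to 697 CPM in control eyes and 396 to 593 CPM in Nrf2 eyes.

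Markers of surface epithelium, the cell type of cornea and conjunctiva, varied in the same libraries. The list holds 9 genes, none at 0 in any library, among them the basal keratins Krt5 (368 to 9871 CPM in control eyes and 409 to 4381 CPM in Nrf2 eyes), Krt14 (110 to 2367 and 92.9 to 994 CPM) and Krt15 (1261 to 17978 and 793 to 7878 CPM). All 9 had estimates below 0 at a median of -1.12. None passed the edgeR test, and 1 had an unadjusted p under 0.05. The summed level ran from 2552 CPM in control 4 to 60886 CPM in control 6, and from 2702 CPM in Nrf2 7 to 25838 CPM in Nrf2 5. From lowest to highest, the control libraries came in the order of mice 4, 1, 7, 2, 3, 5 and 6 for the surface epithelium markers. That order was the same for the summed genes of G2 and mitosis and for the summed genes of G1 and replication. In Nrf2 eyes the order was 7, 1, 6, 2, 3, 4 and 5 for the markers and 1, 7, 3, 6, 2, 4 and 5 for the genes of G2 and mitosis. For the genes of G1 and replication it was 6, 2, 1, 7, 3, 4 and 5. Nrf2 4 and control 3 were near each other in both sums, at 24836 and 26287 CPM of the markers and 303 and 312 CPM of the genes of G2 and mitosis. Within mice, the log2 ratio of the summed markers was -1.49, -1.51, -1.23, 3.28, -0.57, -2.89 and -2.63 in mice 1 to 7, and mouse 4 was the sole animal above 0. For the summed genes of G2 and mitosis the ratio was -1.19, -0.12, -1.63, 1.38, -0.05, -1.48 and -1.45, also above 0 in mouse 4 alone. For the summed genes of G1 and replication the ratio was 0.14, -0.34, -0.11, 0.73, 0.09, -0.82 and -0.14, above 0 in mice 1, 4 and 5. The part of these cells in the differences of the proliferation genes was not tested.

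**Figure D4:**
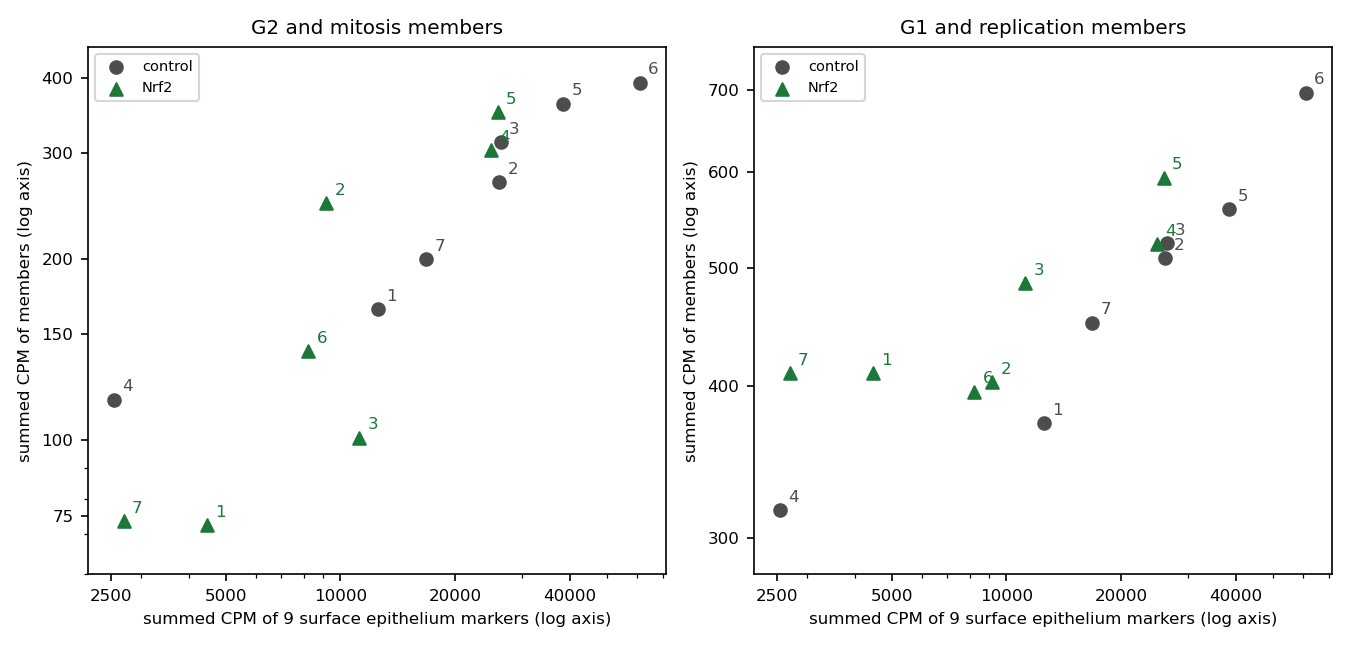
Summed CPM of the 26 genes of G2 and mitosis (left) and the 14 genes of G1 and replication (right) against the summed CPM of 9 surface epithelium markers in each of 14 libraries, on log axes, with circles for control eyes, triangles for Nrf2 eyes and mouse numbers beside them. Control 4 is the lowest and control 6 the highest control library on every axis, and control 3 and Nrf2 4 lie side by side.

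Other cell types did not share that order of control libraries. The 14 RPE markers summed to 19860 CPM in control 6, the lowest, and 41245 CPM in control 4, the highest, so the extreme libraries of the proliferation genes held the opposite places. Rpe65 was the RPE marker that passed the test, at -2.17 (SE 0.37, adjusted p = 0.0198 by edgeR), while 7 of the 14 had estimates above 0 and the median was -0.039. The 16 markers of macrophages and microglia summed to 290 to 562 CPM in control eyes, with control 5 lowest. In Nrf2 eyes they summed to 186 to 808 CPM, with Nrf2 7 highest. None of the 16 was called, while 14 had estimates above 0 and 2 below, at a median of 1.07. Of the further lists, the endothelial markers summed to 102 to 420 CPM in control eyes. There the fibroblast and mural markers summed to 282 to 1921 CPM. Their pericyte gene Rgs5 was called lower (-1.35), and 7 of the 10 were above 0 (median 0.27). The 8 cone markers summed to 43.2 to 1054 CPM in control eyes, with Opn1sw (-5.12) and Gnat2 (-1.69) called lower. All 8 were below 0 at a median of -3.03, each with an unadjusted p under 0.05 by edgeR. No gene was called among the markers of lymphocytes, neutrophils, red blood cells, lens, Schwann cells and melanocytes, rods, or inner retina and Müller glia. Estimates were below 0 for all 8 rod markers (median -1.57) and all 5 red blood cell markers tested (median -0.77). They were below 0 for 8 of 11 tested markers of inner retina and Müller glia (median -0.64), and above 0 for 5 of 6 lens markers (median 0.11). The lymphocyte marker Cd3e and the neutrophil markers S100a8 and S100a9 were at 0 in at least 1 Nrf2 library. The highest sums of the lymphocyte and neutrophil lists were 35.5 and 24.7 CPM, both in Nrf2 2.

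The wider cell cycle was followed in 126 further genes, of which 125 were tested. Of these, 3 rose in Nrf2 eyes (2.40%, near the 2.94% of all genes called higher) and none fell by edgeR. At an unadjusted p under 0.05 by edgeR, 9 were higher and 4 lower. That is 10.4% in either direction, against 18.1% of all genes. DESeq2 called 5 higher and 2 lower, where it called 1217 of 18406 genes higher and 690 lower. The split depended on the fit, since voom with quality weights called 6 of the 125 higher and 7 lower. Among all 16289 genes voom called 1586 higher and 1008 lower. Cdkn1a, which encodes p21, the inhibitor of cyclin-dependent kinases, was at 23.9 to 197 CPM in control eyes (median 78.8) and 110 to 320 CPM in Nrf2 eyes (median 239). It rose by 1.76 on the log2 scale (SE 0.35, adjusted p = 0.0342 by edgeR), and 6 of 7 mice showed that direction. Mouse 6, with 197 CPM in each eye, was the exception, and Nrf2 4 was the lowest Nrf2 library. E2f6, a repressor of the E2F family, was at 49.4 to 87.9 CPM and 93.7 to 256 CPM, so the groups did not overlap, with 1.53 (SE 0.22, adjusted p = 0.0117 by edgeR). Nrf2 4 was again the lowest Nrf2 library for E2f6, and control 3 the highest control library. Tfdp2, a dimerisation partner of E2F proteins, was at 47.1 to 54.1 CPM and 58.0 to 84.0 CPM, also without overlap, at 0.54 (SE 0.11, adjusted p = 0.0371 by edgeR). E2f6 and Tfdp2 were named because they were called, and the share of all genes without overlap was not counted. Leaving out 1 mouse at a time, E2f6 kept its call in 6 of 7 fits (lost without mouse 7, adjusted p = 0.0547), and Cdkn1a and Tfdp2 in 2 of 7 each. Without mice 3 and 4, E2f6 had an adjusted p of 0.00509, Cdkn1a 0.0848 and Tfdp2 0.0857.

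Of the other kinase inhibitors and pocket proteins, Cdkn2b, which encodes p15, was at 2.47 to 55.1 CPM in control eyes and 33.5 to 79.1 CPM in Nrf2 eyes, with 1.39 (SE 0.45, adjusted p = 0.154 by edgeR). DESeq2 called it, at an adjusted p of 0.00903. Cdkn2a, the p16 and p19Arf gene, had too few counts to be tested, at 0 to 0.0421 CPM in control eyes and 0 to 0.0408 CPM in Nrf2 eyes. Cdkn1b, Cdkn1c, Cdkn2c and Cdkn2d, encoding p27, p57, p18 and p19, had -0.08, 0.23, -0.36 and -0.16. The retinoblastoma gene Rb1 had 0.05 and its relatives Rbl1 and Rbl2 -0.30 and 0.04. None of these 7 genes passed the test.

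The remaining lists held further relatives of the 40 genes. Of 43 other DNA replication genes 31 had estimates below 0, at a median of -0.12. Of 51 other mitosis genes 45 did, at a median of -0.41. None was called in either list by edgeR. In each list 3 genes had an unadjusted p under 0.05 (6.98% and 5.88%, against 18.1% of all genes). Of 22 other G1 and G1/S regulators 13 were below 0, and E2f6 and Tfdp2 were those called. Without mouse 4, 12 of the 125 genes were called, 4 higher (3.20%, against 5.98% of all genes in that fit) and 8 lower (6.40%, near the 6.23% of all genes). The 4 were Cdkn1a, E2f6, Tfdp2 and Rpa1, a subunit of the single-strand binding protein, and the 8 were Mybl2, Uhrf1, Tk1, Trip13, Racgap1, Cenpa, Anln and Ncapd2, at -0.96 to -1.45.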

How the data were processed

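RNA of 14 RPE eyecup preparations was amplified with a low-input kit and sequenced in 2 runs that the labels do not assign to libraries. Per the labels and methods, the authors quantified transcripts with Salmon 0.9.1 and summed them per gene for DESeq2, and also aligned reads to mm10 with Ensembl annotation. Each deposited value is an estimated count of a gene, given as a whole number and not normalized between libraries. That they came from Salmon was inferred from the gene types in the table. Such estimates share reads among near-identical genes by a model, and whether strand was used is not given in the sources used here. The vector row was kept out of the test.

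The genes and all lists were chosen with earlier results of these data known. Counts were tested with edgeR 4.0.16 in R 4.3.3 (quasi-likelihood F-test, mouse and treatment as terms, TMM, filterByExpr with a minimum count of 10), with Benjamini-Hochberg adjustment over 16289 genes and 6 residual degrees of freedom. SE came from the F statistic. CPM are a gene's counts among 1000000 counts of its library. Paired differences are in TMM-scaled log2 CPM with a prior count of 2. TPM used GENCODE M21 exon lengths, and 34401 genes matched it. Total counts of 16548349 to 50543008 make 1 count at most 0.0604 CPM. Intervals for counting error are not given, since amplified reads are not independent molecules. P-values measure the spread between these 7 animals.

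Pairing comes from the labels, which number both eyes by animal. As a check, each library's deviations from its group mean over 16289 genes were correlated between the eyes of mice 1 to 7 at 0.004, 0.08, 0.03, -0.31, 0.30, -0.17 and 0.14. The named genes were the 40 genes, all 10 kinase inhibitors and pocket proteins, called genes of the 4 wider lists and of the cell type marker lists, the first markers of each list, and the vector. Alternatives were no block, normalization by RLE or the upper quartile, DESeq2 1.42.0, quality-weighted voom in limma 3.58.1, other filters, each mouse left out, mice 3 and 4 left out, a threshold of 0.01 and, chosen after seeing the data, library sizes recomputed after the filter. Leaving out mice 3 and 4 followed from the likeness of control 3 and Nrf2 4 in these data. The fit was also run on simulated counts with known changes. Those counts had no mouse effect and no reversed or near-identical libraries, so they cannot show how the fit handles such data.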

Additional observations from a re-analysis of the deposited data

Results flagged for a closer look

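In 8 of 103 groups of 7 values, 1 library lay apart from its group by Dixon's test, where chance alone gives about 5.2. Nrf2 2 was the library apart in 3 of them, being the highest Nrf2 eye for Ccne1 at 11.5 CPM, for Rrm1 at 66.5 CPM and for Hmmr at 35.0 CPM. Control 6 was apart in another 3, the highest control eye for Ccne2 at 11.4 CPM and for Cenpf at 24.4 CPM and the lowest for Cdkn1c at 24.2 CPM. Control 5 was the highest control eye for Pcna at 55.3 CPM, and control 7 for E2f1 at 16.3 CPM. Bub1b was not among them.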

How the results depend on the processing

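The count of proliferation genes past the threshold was 1 in the fit with the replicate block of mouse and 1 with no replicate block, where the median was -0.37. It was 2 by DESeq2, 0 without mice 3 and 4, 0 at a threshold of 0.01, and 0 to 8 when 1 mouse was left out. For the wider lists the count of 3 became 4 with no replicate block, 7 by DESeq2, 13 by voom with quality weights (6 higher and 7 lower), 0 at a threshold of 0.01, and 0 to 12 with 1 mouse left out. Over all genes the 559 calls became 1100 with no replicate block, 1907 by DESeq2, 2594 by voom, 347 with no filter, 56 at 0.01, and 97 to 1995 with 1 mouse left out, the highest without mouse 4. The cause of these changes was not tested. Among 51 named genes, 811 comparisons with an alternative kept direction and side of the threshold, 11 gained the call, 26 lost it and 19 changed sign. With voom the sign changed for Hmmr (-0.092), Cdkn1b (0.058), Cdkn1c (-0.069) and Rb1 (-0.025), and without mice 3 and 4 for Rb1 (-0.051). With 1 mouse left out, estimates that crossed 0 ran from -0.27 to 0.0054 for E2f1, -0.25 to 0.090 for Tyms, -0.43 to 0.22 for Kif20a, -0.59 to 0.021 for Tpx2, -0.23 to 0.40 for Hmmr, -0.036 to 0.38 for Cdkn1c and -0.12 to 0.15 for Rb1. Bub1b stayed below 0 in all 16 alternatives, from -1.56 to -1.14. Genes near 1 CPM, such as Plk1 with 4 counts in Nrf2 2, are limited by depth.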

Other observations

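Bub1b did not follow the order of the other proliferation genes. It was highest of all controls in control 4, where 33 of the 40 genes were lowest, and lowest in control 5, where 15 were highest. Rpe65 had its highest and lowest control values in the same libraries, 2220 CPM in control 4 and 752 CPM in control 5. Both genes were also highest among Nrf2 eyes in Nrf2 4 and lowest in Nrf2 7, at 1063 and 134 CPM for Rpe65. Rpe65 was set beside Bub1b after the values of both had been seen. The sum of all 14 RPE markers was likewise highest in control 4, but lowest in control 6. Among Nrf2 eyes that sum was lowest in Nrf2 7 and highest in Nrf2 3. Nrf2 4 is the library that resembled control 3 and held the least vector transcript of the Nrf2 group.

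Melk, a kinase usually counted with mitotic genes and named here after its values were seen, went the other way in 6 of 7 mice, at 2.51 to 31.9 CPM in control eyes and 20.2 to 44.1 CPM in Nrf2 eyes, with 1.06 (SE 0.43, adjusted p = 0.24 by edgeR). In control eyes Melk was lowest in control 4, like 33 of the 40 genes, whereas in Nrf2 eyes it was highest in Nrf2 7, where 12 of the 40 genes were lowest.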
